A study of Homo sapiens with 15 samples.

Results

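Long intergenic noncoding RNA (LINC) genes were examined in HCC95, an established cell line from a human lung squamous cell carcinoma (LUSC), after knockdown of 4 squamous transcription factors. The genes were those of the deposited count table whose symbol is LINC followed by digits alone and whose mean raw count over the 15 libraries was at least 50. They were chosen by this measured level, so the level itself is given as a description. The rule found 235 genes of 2148 with such a symbol and of 61544 genes in all, and all 235 passed the filter on low counts before testing. HCC95 cells had been transfected with the control siRNA siNC1 or with siKLF5b, siTP63b, siSOX2b or siGRHL2a, each a single siRNA against the gene in its name, with 3 libraries per group and no other treatment stated. All groups share the line and the transfection, and an effect of a siRNA on RNAs other than its target cannot be told apart from the loss of that target. The study's methods speak of independent experiments in general terms, and neither they nor the labels say whether the libraries of a group came from separate cultures, so p-values measure only the spread between these libraries, which may be technical.

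A LINC symbol is given to a long noncoding RNA gene that lies between protein-coding genes and has no better descriptor. Such RNAs are transcribed by RNA polymerase II, are often spliced and polyadenylated, and are known to be more restricted to cell types than mRNAs and to be present in fewer copies. Many lie near enhancers, and some, such as LINC01133, LINC00511 and LINC00707, have been studied in tumours of the lung and other organs. TP63, SOX2, KLF5 and GRHL2 are transcription factors of squamous and other stratified epithelia that bind enhancers. TP63 maintains the basal state, SOX2 is amplified together with it in many squamous tumours, KLF5 is a zinc finger factor of proliferating epithelia, and GRHL2 keeps epithelial junction genes active.

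Counts summed to between 15655495 and 34229063 per library. The columns of siTP63b, siSOX2b and siGRHL2a carry another style of name than those of siNC1 and siKLF5b, and 66.1% to 69.0% of their counts in a middle range were even numbers, against 49.7% to 50.7% in the other 6 libraries. A difference between these sets of columns and a difference between knockdowns cannot be told apart, so siKLF5b was compared with siNC1 and the other 3 knockdowns with each other. The latter 3 comparisons share their groups and are not independent. KLF5 had 123, 109 and 107 CPM (counts scaled to library size with TMM factors) in siNC1 and 71.8, 71.8 and 73.8 CPM in siKLF5b, log2FC -0.64 (SE 0.06, adjusted p = 5.29e-10) (edgeR quasi-likelihood fit, Benjamini-Hochberg). TP63 had 350.0, 351 and 389 CPM in siTP63b, 704, 719 and 647 in siSOX2b and 862, 807 and 825 in siGRHL2a. SOX2 had 29.96, 31.5 and 27.1 CPM in siTP63b, 9.72, 7.09 and 10.1 in siSOX2b and 18.4, 20.9 and 21.2 in siGRHL2a. GRHL2 had 120.0, 116 and 116 CPM in siTP63b, 105, 99.6 and 95.97 in siSOX2b and 90.8, 91.9 and 91.1 in siGRHL2a. Each targeted gene was lowest in the libraries of its own siRNA within its set of columns, although GRHL2 differed little between siSOX2b and siGRHL2a, log2FC 0.14 (SE 0.05, adjusted p = 0.0313). All 9 squamous markers were detected in every library, from KRT5 at 4680 to 9490 CPM down to KRT6A at 28.9 to 199, KRT14 at 22.2 to 199 and SOX2, itself a target, at 7.09 to 109 CPM. Of 13 markers of other cell types, CD68 had 21.2 to 39.8 CPM, NKX2-1 2.06 to 10.6, COL1A1 1.64 to 6.28, PDGFRB 1.02 to 3.46 and PTPRC up to 1.21, and the other 8, CDH5 and PECAM1 among them, did not exceed 0.619 CPM. In bulk RNA, fewer cells of a type and less RNA per cell cannot be told apart.

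The deposited counts cover the whole span of each gene, introns included, and most of the counted span was intron. The spans of the 235 genes ran from 1253 to 790897 bases with a median of 66755, and annotated exons of Gencode v44 filled a median of 4057 bases, or 6.33% of the span. Exons filled under 10% of the span in 145 genes. The v44 annotation names 228 of the genes lncRNA and 7 transcribed pseudogenes, of which LINC02210 is a unitary one, without a parent gene. Reads of the others may be split with the parent gene. The genes lie on 23 chromosomes, 117 on the plus and 118 on the minus strand. Their mean CPM had a median of 5.42 and ranged from 1.81 to 135, and 113 genes were below 5 CPM. Together they took 0.274% to 0.344% of the counts of a library, a share that includes counts matched by overlapping coding genes.

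The gene with the highest CPM was LINC00470 (chr18:1254383-1408344 in hg38, minus strand, 135 CPM, 0.878 CPM per kb of span), followed by LINC00592 (118 CPM, 1.98 per kb), LINC00674 (115 CPM, 1.93 per kb) and LINC01018 (88.7 CPM, 4.88 per kb). Next came LINC02245, LINC02613, LINC01508, LINC00472, LINC00910 and LINC00511, from 72.3 down to 52.5 CPM and from 1.18 down to 0.15 CPM per kb. Scaled to the span the order changed. The highest level per kb belonged to LINC00653, a gene of 1539 bases with 8.18 CPM and 5.31 CPM per kb. LINC00592, LINC01018 and LINC02245 overlap a protein-coding gene, and LINC00470, LINC00674, LINC02613, LINC01508, LINC00472 and LINC00910 are the 6 with the most CPM among the 197 that overlap none. Just inside the threshold on the mean count were LINC01698 at 50.8, LINC00461 at 50.2 and LINC02226 at 50.1 counts, and just outside were LINC02894 at 49.0, LINC01800 at 48.7 and LINC00943 at 48.7. In 59 genes the mean of at least 1 group was under 50 counts, and in none did a single group alone reach it. The mean over 15 libraries includes every group, so a gene near the threshold could still pass through libraries in which it was high.

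Overlap with other genes was common, and it matters because the sources used here do not state whether strand was used in counting. Of the 235 genes, 177 overlapped another listed gene of any kind and 38 (16.2%) overlapped a protein-coding gene, in 41 pairs of which 29 were on opposite strands. In 8 pairs the coding gene lay wholly inside the LINC gene and in 5 the LINC gene lay inside the coding gene. The larger gene had at least the counts of the gene inside it in 15 of 15 libraries for all 13 nested pairs, 8 of which are on opposite strands. The extreme case was LINC00592 (chr12:52164115-52223813, plus strand), whose span holds KRT80, a type II keratin gene on the minus strand. LINC00592 had a mean of 3406 counts and KRT80 a mean of 3378, 99.2% of it, and the difference was between 11 and 72 counts in each library. For LINC01118 and SOCS5, a suppressor of cytokine signalling, the means were 978 and 962 counts on the same strand, with a difference of 6 to 30. SLC1A4, a neutral amino acid transporter on the opposite strand, had 90.5% as many counts as LINC02245. At the other end, PPIAL4G had 0 counts inside LINC01138, and FAM240C had 4.74% as many counts as LINC01237.

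The 8 spans that hold a coding gene were therefore also tested after subtraction of the coding gene's counts, a step chosen after the values were seen. Only 6 to 30 counts remained for LINC01118 and 11 to 72 for LINC00592, so their remainders are poorly measured, while 124 to 259 remained for LINC02245 and 396 to 1018 for LINC01322. Called after subtraction but not before were LINC01322 in siTP63b against siSOX2b (log2FC 0.85, SE 0.07, adjusted p = 7.63e-11), LINC01118 in siTP63b against siGRHL2a (1.39, SE 0.40, adjusted p = 0.00872) and in siSOX2b against siGRHL2a (1.28, SE 0.40, adjusted p = 0.0185), and LINC00592 in the latter (-1.05, SE 0.32, adjusted p = 0.015). Calls lost were LINC00592 in siKLF5b against siNC1 and LINC02245 in siTP63b against siGRHL2a. The largest of these values rest on the smallest remainders.

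**Figure D1:**
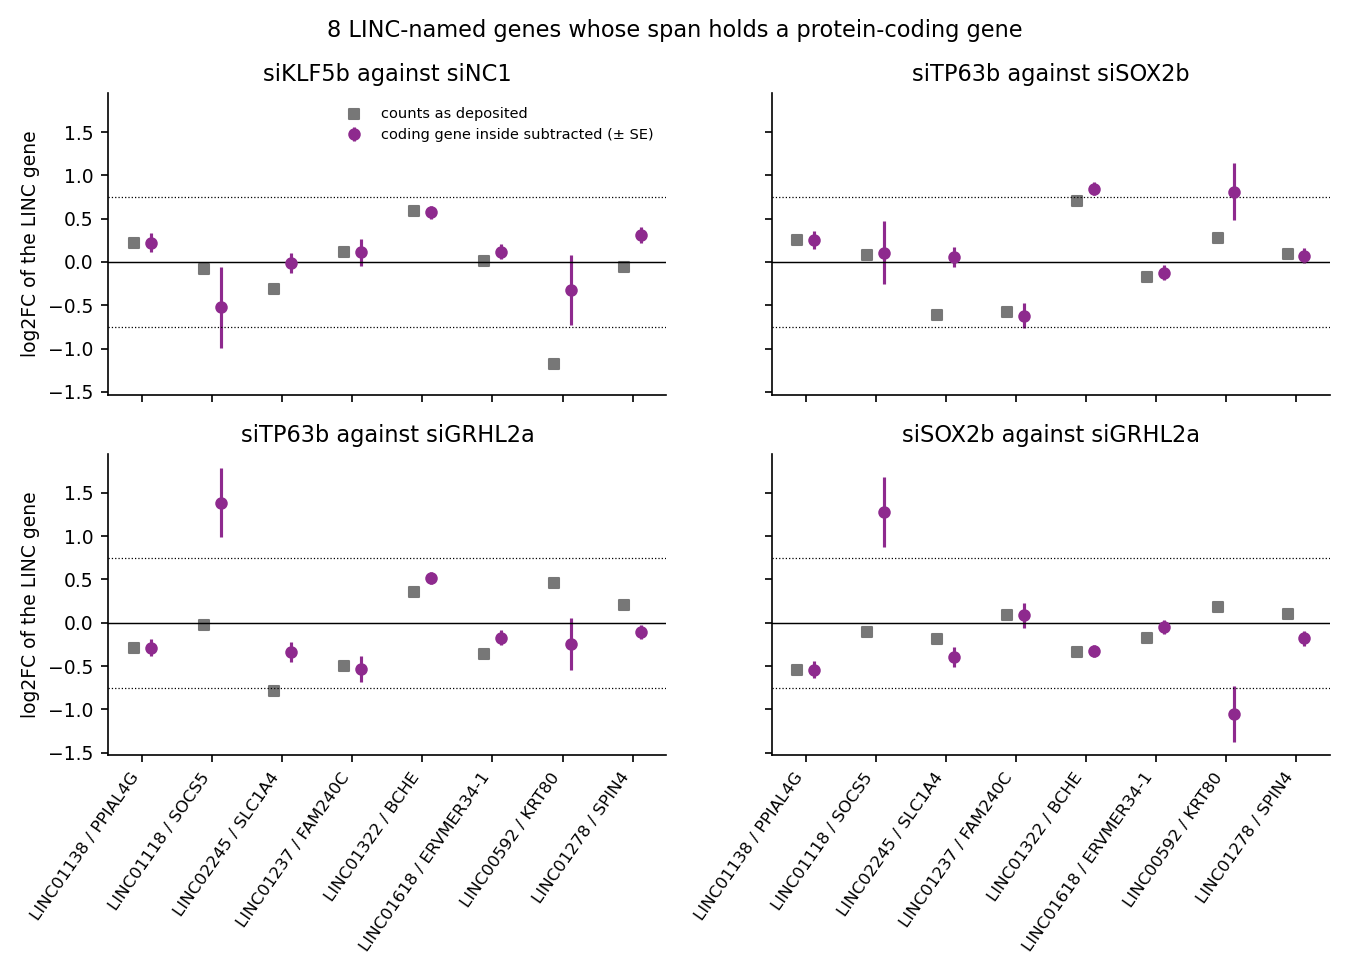
log2FC of the 8 LINC-named genes whose span holds a protein-coding gene (LINC gene / coding gene on the horizontal axis), with the counts as deposited (grey squares) and after the coding gene's counts were subtracted (purple circles, ± SE). Dotted lines mark a log2FC of -0.75 and 0.75. LINC00592 moves from -1.18 to -0.33 in siKLF5b against siNC1, and LINC02245 from -0.79 to -0.34 in siTP63b against siGRHL2a.

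Knockdown of KLF5 was compared with the control to find LINC genes that differ between these groups. SOX2 was also higher in siKLF5b, and its part in these differences was not tested. A gene was called where the quasi-likelihood test of edgeR over 25108 genes gave an adjusted p under 0.05 together with a log2FC of more than 0.75 in either direction. In siKLF5b against siNC1, 19 of the 235 genes rose (8.09%, against 1.89% of all genes tested) and 3 fell (1.28%, against 1.37%). Of the lncRNA genes tested, 3.05% were called higher and 0.966% lower. The mean count that chose the 235 genes includes the siKLF5b libraries, so a gene near the threshold could pass by being high there. LINC00882, LINC01339 and LINC00640, named below, had means of only 52.6, 52.7 and 57.9 counts. The share that rose is therefore a description. The 3 that fell were LINC00707, LINC00592 and LINC01133, and the 6 largest increases were in LINC00861, LINC01339, LINC00640, LINC00882, LINC00324 and LINC01115. All values of log2FC lay between -1.32 and 1.49, and 98 genes were within 0.25 of no change.

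LINC00707 (chr10:6779549-6879450, plus strand) had 2.31, 2.47 and 2.18 CPM in siNC1 and 0.823, 0.986 and 0.954 CPM in siKLF5b, log2FC -1.32 (SE 0.22, adjusted p = 2.06e-05). The 3 siKLF5b libraries all lay below the 3 control libraries, and the groups did not come near each other. It overlaps no protein-coding gene, and the nearest, PRKCQ, lies 199248 bases away. Its span does overlap 4 other listed genes, whose part in its counts was not tested. LINC01133 (chr1:159958035-159984750, plus strand) had 2.88, 1.48 and 2.01 CPM in siNC1 and 0.732, 1.19 and 1.34 CPM in siKLF5b, log2FC -1.001 (SE 0.27, adjusted p = 0.00621). The groups did not overlap, but the call was lost without siNC1 replicate 1 (log2FC -0.73, adjusted p = 0.0892) or without siKLF5b replicate 1 (log2FC -0.78, adjusted p = 0.0641). LINC00592 had 77.6, 68.8 and 73.7 CPM in siNC1 and 30.97, 31.7 and 35.04 CPM in siKLF5b, log2FC -1.18 (SE 0.07, adjusted p = 1.9e-14), and KRT80 had 77.1, 68.1 and 72.8 CPM and 30.4, 31.3 and 34.2 CPM, log2FC -1.19 (SE 0.07, adjusted p = 1.57e-14). In each library LINC00592 exceeded KRT80 by 11 to 72 counts only, and after subtraction of the KRT80 counts the remainder had a log2FC of -0.33 (SE 0.40, adjusted p = 0.629). The decrease of LINC00592 was thus not measured apart from that of KRT80.

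Of the increases, LINC00861 (chr8:125859721-126292788, minus strand) had 1.46, 1.54 and 1.38 CPM in siNC1 and 3.89, 4.36 and 4.07 CPM in siKLF5b, log2FC 1.49 (SE 0.17, adjusted p = 4.87e-08). LINC01339 (chr5:90153052-90290078, minus strand) had 1.15, 1.21 and 1.13 CPM in siNC1 and 3.84, 2.92 and 2.798 CPM in siKLF5b, log2FC 1.46 (SE 0.25, adjusted p = 3.14e-05). In both genes the lowest siKLF5b library was more than 2 times the highest control library. LINC00640 (chr14:51333068-51365557, plus strand) had 3.24, 2.42 and 2.18 CPM in siNC1 and 5.99, 4.89 and 5.92 CPM in siKLF5b, log2FC 1.09 (SE 0.21, adjusted p = 0.000174). LINC00882, the longest of the 235 genes at 790897 bases (chr3:106449775-107240671, minus strand), had 1.55, 1.87 and 1.43 CPM in siNC1 and 3.48, 3.86 and 2.29 CPM in siKLF5b, log2FC 1.02 (SE 0.23, adjusted p = 0.00131). The siKLF5b libraries spread more widely in LINC00882, where replicate 3 was the lowest, but stayed above all controls. LINC00324, a short gene of 3420 bases (chr17:8220624-8224043, minus strand), had 2.44, 2.03 and 2.39 CPM in siNC1 and 4.62, 4.85 and 4.52 CPM in siKLF5b, log2FC 1.02 (SE 0.17, adjusted p = 3.6e-05). LINC01115 (chr2:779840-868608, minus strand) had 1.37, 0.988 and 1.34 CPM in siNC1 and 2.38, 2.51 and 2.48 CPM in siKLF5b, log2FC 0.97 (SE 0.26, adjusted p = 0.00529). Its groups were tight and well apart. Among these genes, LINC00882 overlaps 18 other listed genes, LINC00861 7 and LINC00640 1, none of them protein-coding. LINC01339, LINC00324 and LINC01115 overlap 0. The part of the overlapping genes in these counts was not tested. Of the 6, LINC00324 lies closest to a coding gene, 772 bases from CTC1, a telomere maintenance gene that gave log2FC 0.12 (SE 0.10, adjusted p = 0.445).

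**Figure D2:**
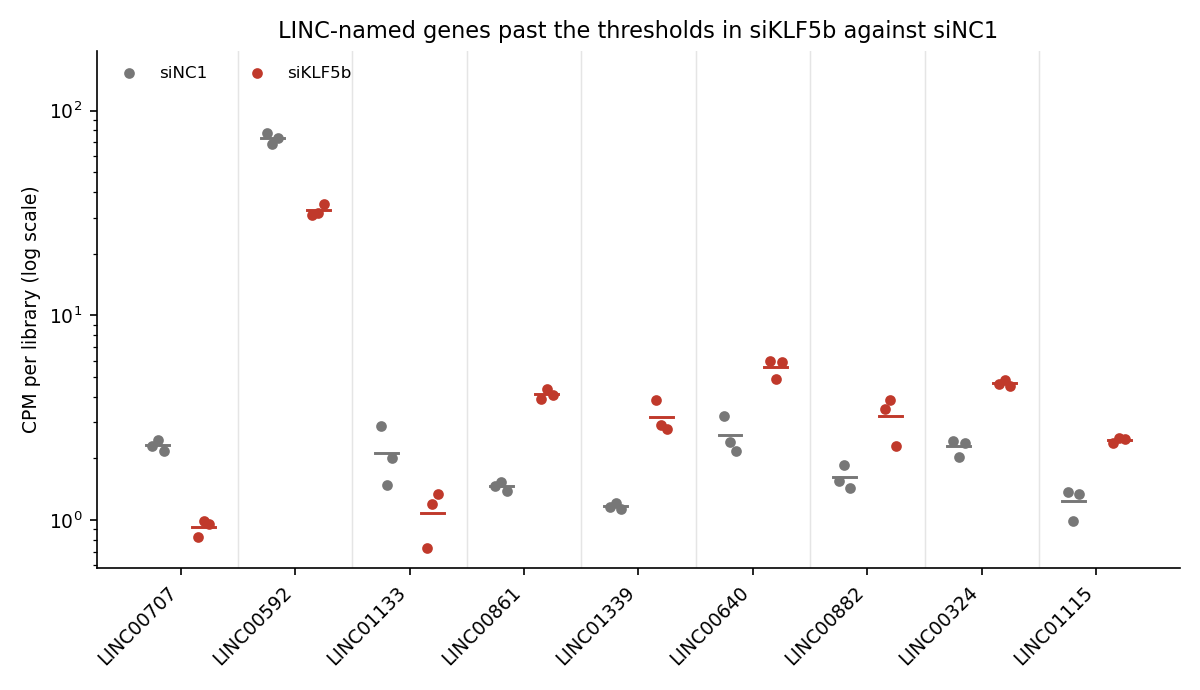
CPM of the 9 named LINC genes called in siKLF5b against siNC1, on a log scale. Each point is a library (3 per group, siNC1 grey and siKLF5b red) and each bar the mean of the group. LINC00707, LINC00592 and LINC01133 are lower in all siKLF5b libraries and the other 6 genes are higher in all of them.

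The remaining 13 genes that rose had a log2FC between 0.76 and 0.94. Among them LINC00342 (21.3 CPM) gave log2FC 0.92 (SE 0.11, adjusted p = 1.99e-07) and LINC02328 (20.1 CPM) gave log2FC 0.76 (SE 0.09, adjusted p = 6.2e-08), which are the best counted of the increases. With 1 library left out, the log2FC of LINC02328 was as low as 0.71, short of the fold threshold. So were the lowest values of LINC00412 (0.74), LINC01091 (0.67), LINC01414 (0.61) and LINC01719 (0.73). The same held for LINC01901 (0.64), LINC02542 (0.72), LINC02615 (0.71) and LINC02798 (0.71). LINC01524 was the one gene that rose while overlapping a coding gene, ZFP64, which lay on the opposite strand and gave a log2FC of -0.10 (adjusted p = 0.319). Of the other 18, 14 had a nearest coding gene that was tested, 6 of these had a log2FC of the same sign and 0 were called by edgeR or DESeq2 (1 was lower and 3 were higher at an unadjusted p under 0.05), although an overlap with LINC-named or other noncoding genes was not considered here. Of all protein-coding genes tested in this comparison, 43.0% had a log2FC above 0 and 1.44% were called higher. The LINC genes named in this paragraph were named after their values were seen.

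In siKLF5b against siNC1 the median log2FC of the 235 genes was 0.24, against -0.01 for all genes tested, 0.09 for the 7142 lncRNA genes tested and -0.04 for the 15351 protein-coding genes tested. A log2FC above 0 was found in 178 of the 235 (75.7%) and in 48.7% of all genes tested. The median was 0.13 for the 38 genes that overlap a coding gene and 0.28 for the 197 that do not. By span it was 0.18 in the 78 shortest genes, 0.20 in the 78 of middle length and 0.36 in the 79 longest. Called increases numbered 4, 4 and 11 in these classes. Summed over the 235 genes, siNC1 had 2888, 2931 and 2977 CPM and siKLF5b 3373, 3322 and 3300 CPM. All siKLF5b sums were above all control sums.

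The summed CPM of 399 olfactory receptor genes, which epithelial cells of the lung hardly use, moved in the same direction. It was 16.3, 19.9 and 18.2 CPM in siNC1 and 24.1, 25.8 and 20.7 CPM in siKLF5b. The groups did not overlap, and its part in the shift of the LINC genes was not tested. In the other set the olfactory receptor sum was 17.1, 15.3 and 14.1 CPM in siTP63b, 12.7, 13.7 and 12.5 CPM in siSOX2b and 14.4, 13.5 and 12.4 CPM in siGRHL2a. There siTP63b lay above siSOX2b in every library, while siSOX2b and siGRHL2a overlapped. The split by span, the medians by gene class and this sum were chosen after the values were seen.

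**Figure D3:**
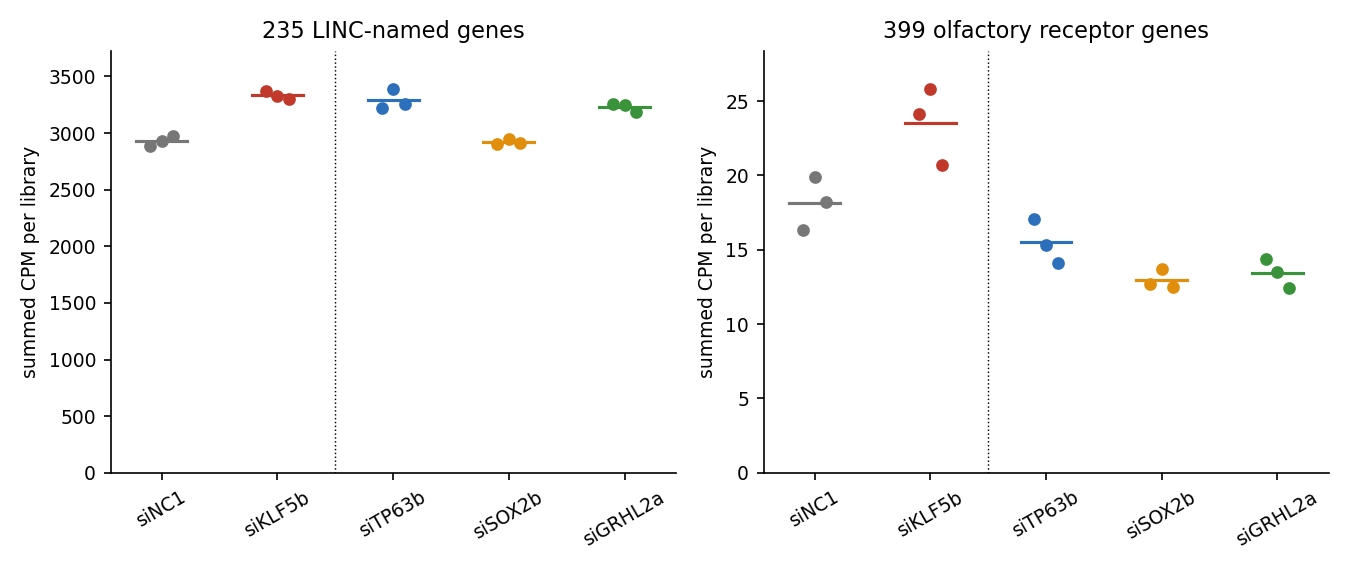
Summed CPM per library of the 235 LINC-named genes (left) and of 399 olfactory receptor genes (right), with 3 points and a mean bar per group and axes that start at 0. The dotted line parts the sets of columns, which are not compared with each other. The LINC sum is 3300 to 3373 CPM in siKLF5b and 2888 to 2977 CPM in siNC1, and the olfactory receptor sum is also higher in siKLF5b. The LINC sums include counts matched by overlapping coding genes.

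Knockdown of TP63 was set against knockdown of SOX2 within one set of columns. In siTP63b against siSOX2b, 16 of the 235 genes were higher (6.81%, against 3.88% of all genes tested) and 2 were lower (0.851%, against 2.82%). Of the lncRNA genes tested, 4.8% were called higher and 3.37% lower. The median log2FC was 0.18, against 0.00059 for all genes tested, and 155 genes were above 0. It was 0.05 in the 78 shortest genes, 0.12 in the 78 of middle length and 0.38 in the 79 longest, and 10 of the 16 higher genes belonged to the longest class. The summed CPM was 3220, 3388 and 3256 in siTP63b and 2906, 2945 and 2913 in siSOX2b. No sum of siTP63b overlapped siSOX2b.

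Higher in siTP63b was LINC02331 (chr14:53685139-53850882, minus strand), with 8.81, 11.8 and 12.9 CPM in siTP63b, 3.18, 4.97 and 3.096 in siSOX2b and 3.28, 3.68 and 2.72 in siGRHL2a. Every siTP63b library was above every library of the other knockdowns, log2FC 1.56 (SE 0.16, adjusted p = 4.18e-09) against siSOX2b and log2FC 1.79 (SE 0.16, adjusted p = 3.29e-10) against siGRHL2a. Its nearest coding gene, 98854 bases away, is BMP4, a ligand of the TGF-beta family, with 21.1, 19.1 and 22.5 CPM in siTP63b, 11.1, 11.3 and 12.2 in siSOX2b and 11.02, 10.8 and 11.8 in siGRHL2a. BMP4 was called in the same direction in both comparisons, log2FC 0.86 (SE 0.09, adjusted p = 1.25e-08) and log2FC 0.90 (SE 0.09, adjusted p = 4.92e-09). LINC01547 (7128 bases, chr21:44932814-44939941, minus strand) had 7.11, 6.32 and 7.55 CPM in siTP63b, 3.61, 3.09 and 2.12 in siSOX2b and 4.82, 4.58 and 5.45 in siGRHL2a, log2FC 1.23 (SE 0.16, adjusted p = 2.83e-07) for siTP63b against siSOX2b. The siGRHL2a libraries lay between the other groups.

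LINC02798 (chr1:121396754-121463508, plus strand) had 2.94, 3.26 and 1.78 CPM in siTP63b, 1.16, 0.849 and 1.42 in siSOX2b and 2.58, 3.08 and 2.78 in siGRHL2a, log2FC 1.25 (SE 0.23, adjusted p = 7.39e-05) for siTP63b against siSOX2b. LINC01691 (chr1:121573946-121580524, minus strand) had 2.28, 2.55 and 1.92 CPM in siTP63b, 0.978, 0.728 and 1.33 in siSOX2b and 2.58, 2.77 and 2.17 in siGRHL2a, log2FC 1.19 (SE 0.26, adjusted p = 0.000476). Both were lowest in siSOX2b and overlapped between siTP63b and siGRHL2a. They lie near SRGAP2C, a partial copy of SRGAP2 in duplicated sequence by the centromere of chromosome 1, so unique alignment there is less certain. Against siGRHL2a the same siSOX2b libraries gave log2FC -1.32 (SE 0.23, adjusted p = 4.32e-05) for LINC02798 and log2FC -1.34 (SE 0.25, adjusted p = 0.000131) for LINC01691. LINC01339 had 2.74, 3.54 and 2.14 CPM in siTP63b, 1.04, 1.39 and 1.42 in siSOX2b and 1.77, 1.598 and 1.29 in siGRHL2a, log2FC 1.14 (SE 0.23, adjusted p = 0.000204) for siTP63b against siSOX2b. LINC02196 (chr5:6839460-7219291, plus strand) had 2.48, 3.64 and 2.64 CPM in siTP63b, 1.38, 0.97 and 1.73 in siSOX2b and 1.57, 2.83 and 2.08 in siGRHL2a, log2FC 1.13 (SE 0.24, adjusted p = 0.000379). In both, the lowest siTP63b library was above the highest siSOX2b library.

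Lower in siTP63b were LINC02520 and LINC02827. LINC02520 (chr6:37507348-37536266, plus strand) overlaps no other listed gene and had 0.946, 0.884 and 0.748 CPM in siTP63b, 3.09, 2.76 and 2.08 in siSOX2b and 3.08, 4.1 and 2.57 in siGRHL2a. The siTP63b libraries were all under 1 CPM and the other 6 all above 2 CPM, log2FC -1.63 (SE 0.23, adjusted p = 1.6e-06) against siSOX2b and log2FC -1.91 (SE 0.23, adjusted p = 6.85e-08) against siGRHL2a, the most negative value of any of the 235 genes in the 4 comparisons. LINC02520 was not compared with a control, as this set of columns holds none. Its nearest coding gene, CCDC167 at 7455 bases, gave a log2FC of -0.03 (adjusted p = 0.915) and 0.04 (adjusted p = 0.876) in these comparisons. LINC02827 (chr12:3318718-3325343, plus strand) had 2.19, 1.53 and 2.32 CPM in siTP63b, 3.91, 3.82 and 2.698 in siSOX2b and 4.09, 3.05 and 3.37 in siGRHL2a, log2FC -0.80 (SE 0.19, adjusted p = 0.00166) against siSOX2b. The groups did not overlap, but the call was lost without siTP63b replicate 2 (log2FC -0.64), siSOX2b replicate 1 (-0.72) or siSOX2b replicate 2 (-0.74). The count of lower genes was 4 rather than 2 without siTP63b replicate 1, and 4 without siSOX2b replicate 3.

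In siTP63b against siGRHL2a, 10 of the 235 genes were lower (4.26%, against 3.21% of all genes tested) and 8 were higher (3.40%, against 2.18%). The median log2FC was -0.03 and that of all genes -0.01, and the shares called were close to the background. LINC02541 (chr6:113616927-113650090, minus strand), which overlaps no listed gene, had 15.6, 14.3 and 14.0 CPM in siTP63b, 20.9, 22.3 and 23.4 in siSOX2b and 34.5, 31.9 and 32.7 in siGRHL2a. The 3 groups were apart in every library, lowest in siTP63b and highest in siGRHL2a, log2FC -1.18 (SE 0.07, adjusted p = 7.75e-14) for siTP63b against siGRHL2a. LINC02236 (chr5:6765891-6833120, plus strand) had 1.57, 1.699 and 2.07 CPM in siTP63b, 2.996, 2.73 and 2.3 in siSOX2b and 3.19, 3.08 and 5.02 in siGRHL2a, log2FC -1.08 (SE 0.19, adjusted p = 3.93e-05). LINC02026 (chr3:193957372-194003760, minus strand) had 5.45, 5.95 and 7.05 CPM in siTP63b, 8.19, 9.09 and 7.39 in siSOX2b and 12.6, 14.5 and 11.1 in siGRHL2a, log2FC -1.05 (SE 0.12, adjusted p = 2.76e-08). Both were lower in all siTP63b libraries than in all siGRHL2a libraries, and the nearest coding gene of LINC02026, the Notch target HES1 at 132388 bases, gave log2FC -0.51 (SE 0.11, adjusted p = 0.00052), short of the fold threshold. TENT4A, nearest to LINC02236 at 8847 bases, gave log2FC 0.12 (SE 0.05, adjusted p = 0.0594). MARCKS, nearest to LINC02541 at 207255 bases, gave log2FC 0.04 (SE 0.05, adjusted p = 0.66).

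LINC02614 (chr3:125827238-125916384, minus strand) had 4.15, 4.42 and 3.85 CPM in siTP63b, 6.42, 5.396 and 7.34 in siSOX2b and 7.37, 7.75 and 9.09 in siGRHL2a, log2FC -0.96 (SE 0.15, adjusted p = 7.13e-06). LINC01707 (chr1:69055838-69229607, plus strand) had 2.45, 1.495 and 1.92 CPM in siTP63b, 3.12, 3.52 and 2.12 in siSOX2b and 3.104, 3.65 and 3.67 in siGRHL2a, log2FC -0.82 (SE 0.20, adjusted p = 0.00198). Neither gene overlapped between siTP63b and siGRHL2a, but LINC01707 lost its call without siTP63b replicate 2 (log2FC -0.65, adjusted p = 0.0234). LINC02245 had 56.7, 49.1 and 60.1 CPM in siTP63b, 90.2, 79.7 and 82.7 in siSOX2b and 92.6, 95.1 and 99.7 in siGRHL2a, log2FC -0.79 (SE 0.06, adjusted p = 1.14e-11), while SLC1A4 inside it gave log2FC -0.84 (SE 0.07, adjusted p = 1.45e-11). After subtraction of the SLC1A4 counts the log2FC of LINC02245 was -0.34 (SE 0.11, adjusted p = 0.0283), which is not past the fold threshold. The other genes that were lower were LINC02457, LINC00683, LINC02827 and the LINC02520 described above. With 1 library left out, the log2FC weakened to -0.70 for LINC02245, -0.70 for LINC02457, -0.52 for LINC00683 and -0.63 for LINC02827. These values are short of the fold threshold. Next to LINC02457, at 27058 bases, MAP1LC3B2 gave log2FC -1.36 (SE 0.22, adjusted p = 1.05e-05). MAP1LC3B2 is a close copy of the autophagy gene MAP1LC3B, so its count is uncertain.

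Higher in siTP63b than in siGRHL2a, besides LINC02331, was LINC01764 (chr19:15827005-15835853, minus strand), with 6.17, 4.66 and 6.55 CPM in siTP63b, 4.89, 5.002 and 4.91 in siSOX2b and 1.86, 2.26 and 2.6 in siGRHL2a, log2FC 1.37 (SE 0.19, adjusted p = 1.34e-06). LINC02760 (chr11:37938601-37954663, plus strand) had 4.77, 5.404 and 5.09 CPM in siTP63b, 3.67, 4.27 and 4.202 in siSOX2b and 2.76, 2.23 and 1.77 in siGRHL2a, log2FC 1.17 (SE 0.16, adjusted p = 1.51e-06). In both genes siGRHL2a was the low group, below every library of siTP63b and of siSOX2b. LINC02341 (chr13:42339188-42485956, plus strand) had 3.79, 4.76 and 2.28 CPM in siTP63b, 1.41, 1.94 and 1.59 in siSOX2b and 1.68, 1.48 and 1.41 in siGRHL2a, log2FC 1.24 (SE 0.21, adjusted p = 2.81e-05). LINC01895 (chr18:3347696-3383532, minus strand) had 4.37, 3.603 and 4.56 CPM in siTP63b, 2.78, 3.27 and 3.804 in siSOX2b and 1.97, 2.47 and 2.202 in siGRHL2a, log2FC 0.91 (SE 0.19, adjusted p = 0.000437). The siTP63b libraries of LINC02341 spread from 2.28 to 4.76 CPM, yet stayed above those of siSOX2b and siGRHL2a.

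LINC00472, which has been studied as a growth-restraining RNA in breast tumours, was the best counted gene that was higher in siTP63b (chr6:71343427-71420745, minus strand). It had 96.7, 109 and 101 CPM in siTP63b, 62.7, 68.7 and 59.6 in siSOX2b and 54.4, 54.9 and 55.2 in siGRHL2a, log2FC 0.90 (SE 0.06, adjusted p = 1.01e-12) for siTP63b against siGRHL2a. Every siTP63b library was above every other library of the set, but against siSOX2b the difference was under the fold threshold, log2FC 0.68 (SE 0.06, adjusted p = 3.11e-10). Its nearest coding gene OGFRL1, 34368 bases away, had 132, 139 and 139 CPM in siTP63b, 91.7, 90.7 and 85.6 in siSOX2b and 81.8, 82.7 and 71.5 in siGRHL2a, log2FC 0.80 (SE 0.05, adjusted p = 4.64e-13). LINC01090, of 671550 bases (chr2:187712816-188384365, minus strand), overlaps GULP1, an adaptor for the engulfment of dead cells, over 13.8% of its span on the opposite strand. LINC01090 had 11.8, 11.7 and 11.6 CPM in siTP63b, 5.08, 6.03 and 4.998 in siSOX2b and 6.59, 6.21 and 7.25 in siGRHL2a, log2FC 1.12 (SE 0.11, adjusted p = 2.95e-09) against siSOX2b and log2FC 0.81 (SE 0.11, adjusted p = 9.05e-07) against siGRHL2a. GULP1 gave log2FC 1.18 (SE 0.08, adjusted p = 6.96e-13) and log2FC 0.81 (SE 0.08, adjusted p = 1.83e-09), and had 291% of the counts of LINC01090, so reads of the pair cannot be told apart in the overlap.

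In siSOX2b against siGRHL2a, 7 of the 235 genes were lower (2.98%, against 2.27% of all genes tested) and 2 were higher (0.851%, against 1.05%). The median log2FC was -0.20, against -0.02 for all genes tested, and 177 genes were below 0. The summed CPM was 2906 to 2945 in siSOX2b and 3183 to 3257 in siGRHL2a, with no overlap, while the olfactory receptor sums overlapped. Besides LINC01691 and LINC02798, LINC01249 (chr2:4628216-4656498, minus strand) was lower, with 3.296, 4.66 and 2.64 CPM in siTP63b, 2.48, 1.94 and 1.86 in siSOX2b and 4.003, 5.28 and 3.67 in siGRHL2a, log2FC -1.03 (SE 0.19, adjusted p = 0.00015). LINC02267 (chr4:96310701-96818864, plus strand) had 3.002, 4.35 and 1.96 CPM in siTP63b, 1.77, 1.09 and 1.59 in siSOX2b and 2.55, 3.798 and 2.63 in siGRHL2a, log2FC -1.02 (SE 0.24, adjusted p = 0.00184). No siSOX2b library reached the lowest siGRHL2a library in either gene.

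LINC02607 (chr1:95510059-95782342, plus strand) had 3.85, 3.54 and 2.64 CPM in siTP63b, 3.49, 1.76 and 3.36 in siSOX2b and 5.92, 4.46 and 5.26 in siGRHL2a, log2FC -0.88 (SE 0.18, adjusted p = 0.000438). LINC01521 (1943 bases, chr22:31346777-31348719, plus strand) had 2.25, 2.31 and 1.57 CPM in siTP63b, 1.65, 1.15 and 2.34 in siSOX2b and 3.71, 2.65 and 2.36 in siGRHL2a, log2FC -0.79 (SE 0.24, adjusted p = 0.013). In LINC01521 the highest siSOX2b library and the lowest siGRHL2a library were almost level, and its call was lost without siSOX2b replicate 2 (log2FC -0.56, adjusted p = 0.118) or siGRHL2a replicate 1 (log2FC -0.57, adjusted p = 0.12). LINC02607 lost its call without siSOX2b replicate 2 (log2FC -0.60). The genes that were higher were LINC01764, log2FC 1.14 (SE 0.19, adjusted p = 3.94e-05), and LINC02760, log2FC 0.84 (SE 0.17, adjusted p = 0.000323), the latter not called without siGRHL2a replicate 3 (log2FC 0.71). The count of lower genes was 13 without siSOX2b replicate 3, 11 without siGRHL2a replicate 1 and 11 without siGRHL2a replicate 2, and the count of higher genes was 1 without siGRHL2a replicate 3.

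**Figure D4:**
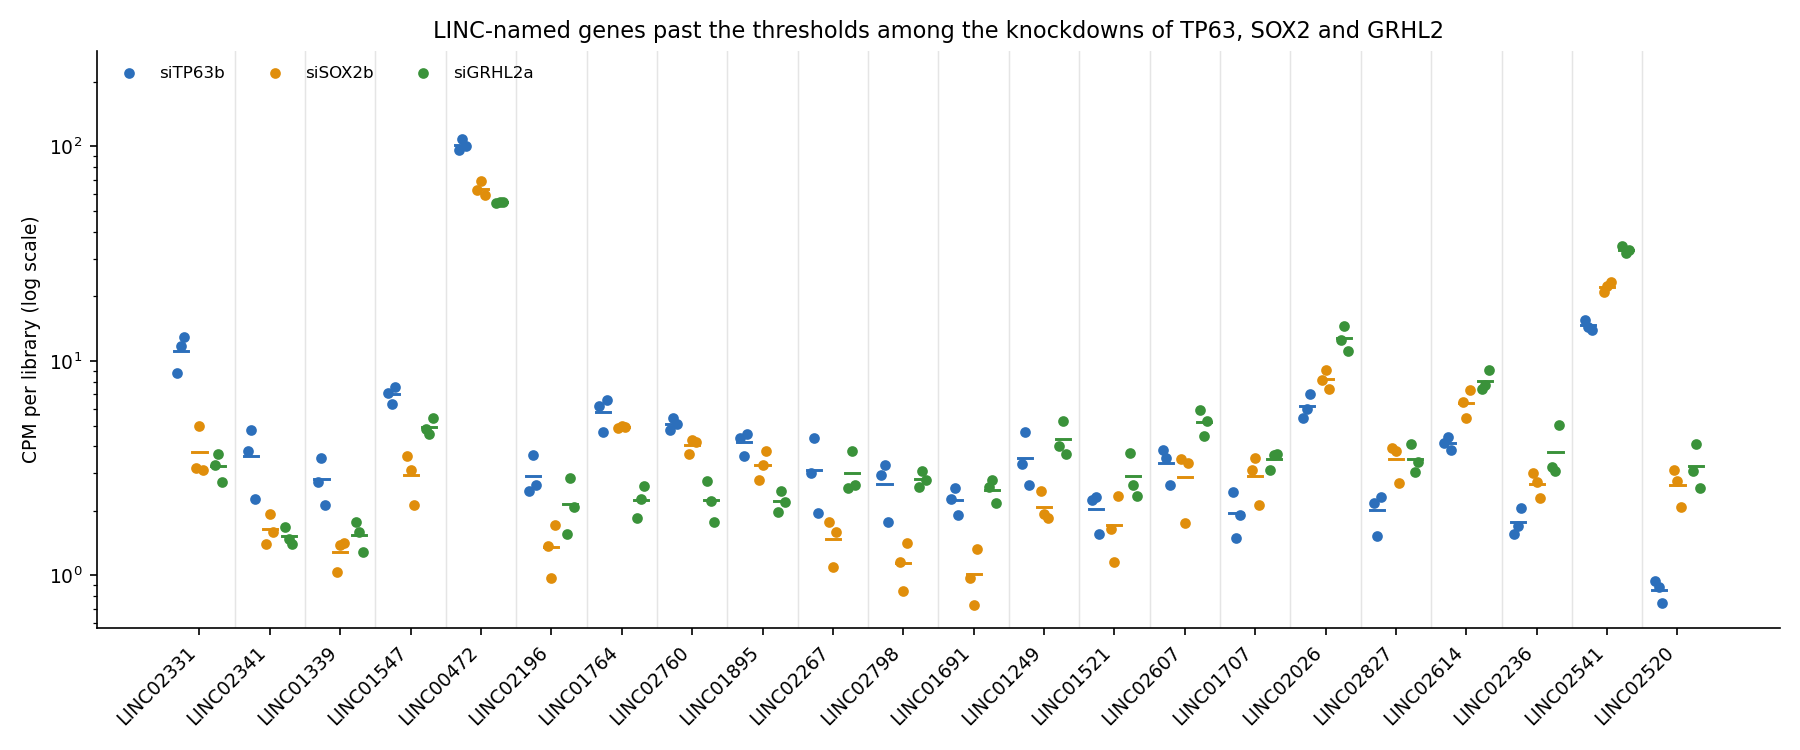
CPM of the 22 LINC genes named in the comparisons among siTP63b (blue), siSOX2b (orange) and siGRHL2a (green), on a log scale, ordered from the highest to the lowest ratio of siTP63b to the other knockdowns. Points are libraries (3 per group) and bars are group means. LINC02331 is highest and LINC02520 lowest in siTP63b, and LINC02798 and LINC01691 are lowest in siSOX2b.

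Within this set of columns, 34 genes were called in at least 1 of the 3 comparisons. Against both other knockdowns siTP63b was lower in LINC02520 and LINC02827 and higher in LINC01090, LINC01339, LINC02331 and LINC02341. With 1 library left out, the log2FC against siGRHL2a weakened to 0.66 for LINC01339 and to -0.63 for LINC02827, short of the fold threshold. Likewise siSOX2b was lower than both others in LINC01691, LINC02267 and LINC02798, and siGRHL2a was lower than both in LINC01764 and LINC02760. These counts follow from comparisons that share a group. Over all 4 comparisons 50 genes were called at least once, 13 of them in 2 comparisons and 2 in 3, and 185 were called in none. Such counts over several comparisons were not made for all genes tested, so they are a description.

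**Figure D5:**
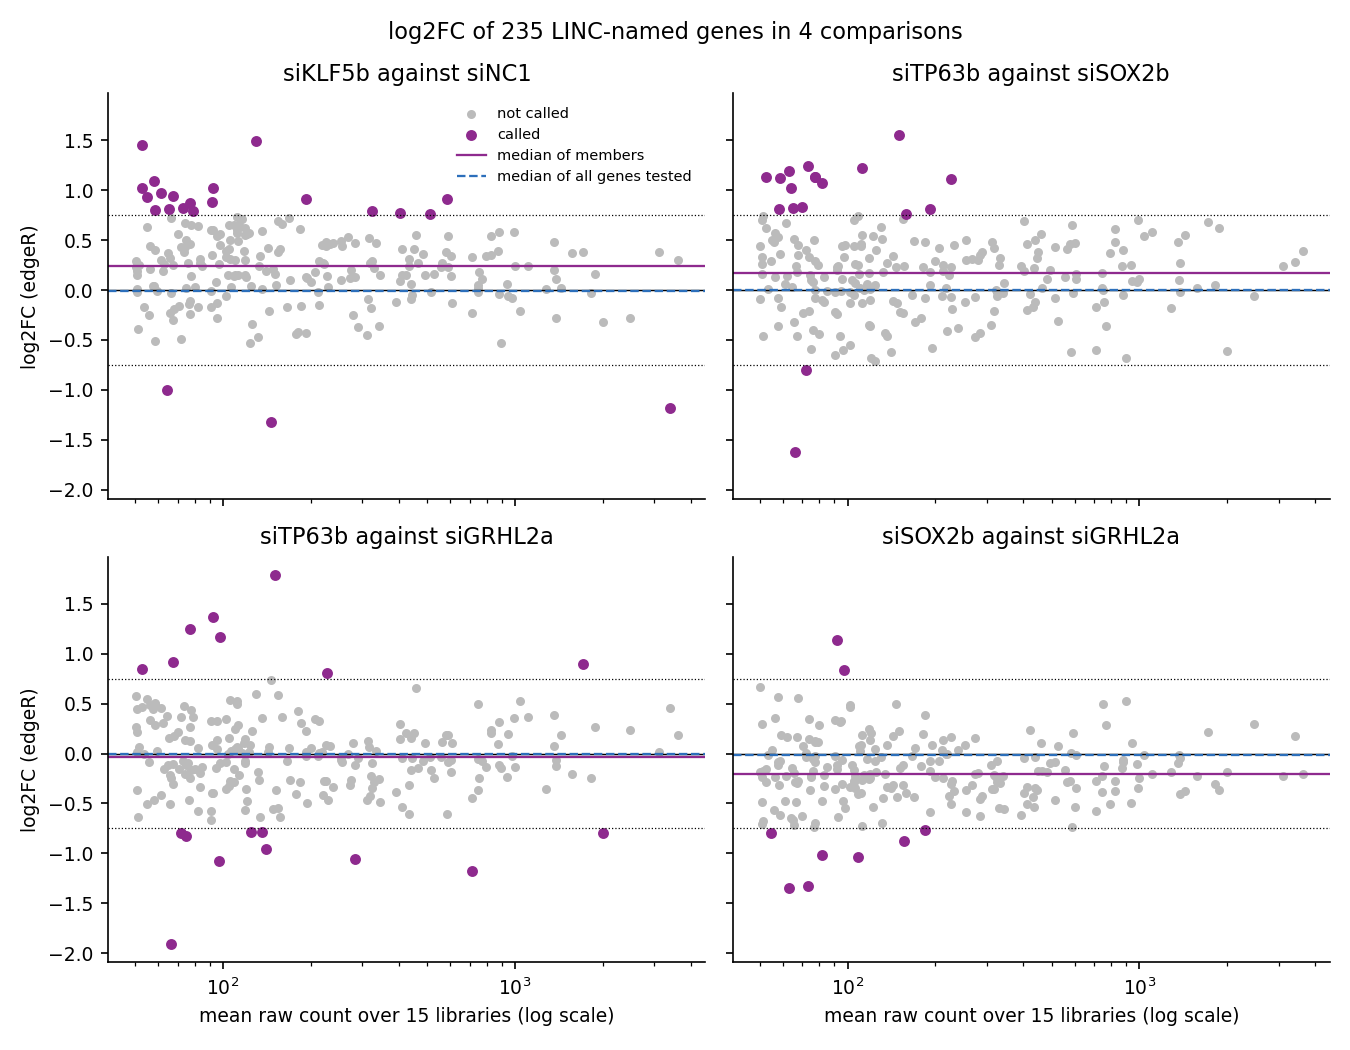
log2FC of the 235 LINC-named genes (vertical axis) against their mean raw count over 15 libraries (log scale) in the 4 comparisons. Called genes are purple, dotted lines mark -0.75 and 0.75, the purple line is the median of the 235 genes and the dashed blue line that of all genes tested. The median of the LINC genes is 0.24 in siKLF5b against siNC1, 0.18 in siTP63b against siSOX2b, -0.03 in siTP63b against siGRHL2a and -0.20 in siSOX2b against siGRHL2a.

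The precision differed between genes. The SE of log2FC had a median of 0.16 in siKLF5b against siNC1 and of 0.14 to 0.15 in the other comparisons, and it ranged from 0.05 to 0.34 over all 4. The 50 called genes had a median of 92.4 mean counts, and the other 185 a median of 185. Only 6 of the 48 genes above 500 mean counts were called, LINC00592 and LINC02245 among them. With the called genes included, 94 genes in siKLF5b against siNC1 and 96 in siTP63b against siSOX2b had an adjusted p below 0.05. In siTP63b against siGRHL2a 78 genes did, and in siSOX2b against siGRHL2a 85. Those not called, with a log2FC of at most 0.75 in size, are measured differences that were too small for the fold threshold. Of the 38 genes that overlap a coding gene, 4 were called, and of the 197 that do not, 46. The share of all genes tested that were called at least once was not counted, so these numbers are a description.

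A list of 24 LINC genes studied in cancer was followed as a group. The list was chosen with earlier results of these data known, so its counts of called genes are a description. Of the 24 genes, 23 were in the table, 19 were tested and 16 were among the 235 genes. In siKLF5b against siNC1, 3 of the 19 fell (LINC01133, LINC00707 and LINC00592) and 0 rose, with a median log2FC of 0.09, where 1.37% of all genes tested were called lower and 1.89% higher. Of these 3, LINC00592 was not measured apart from KRT80 (log2FC -0.33, adjusted p = 0.629 after subtraction), and LINC01133 lost its call without siNC1 replicate 1 or siKLF5b replicate 1. In siTP63b against siSOX2b, 2 were higher (LINC01133 and LINC01206) and 0 lower, in siTP63b against siGRHL2a 0 were called, and in siSOX2b against siGRHL2a 1 was lower (LINC01206), with 2.27% to 3.21% of all genes called lower and 1.05% to 3.88% called higher in these comparisons. DESeq2 gave the same numbers. At an unadjusted p under 0.05 in edgeR without a fold threshold, 4 of the 19 were lower and 4 higher in the first comparison, 5 and 7 in the second, 2 and 5 in the third and 7 and 3 in the last. LINC01133 had 3.72, 3.13 and 4.02 CPM in siTP63b, 2.02, 1.76 and 1.504 in siSOX2b and 3.05, 2.23 and 3.06 in siGRHL2a, log2FC 1.03 (SE 0.22, adjusted p = 0.000434) for siTP63b against siSOX2b. The siSOX2b libraries were the lowest of the set, below all siGRHL2a libraries as well. LINC00511, which has been studied as a growth-promoting RNA, had 70.1, 66.1 and 59.8 CPM in siTP63b, 44.5, 42.4 and 46.7 in siSOX2b and 60.6, 56.6 and 55.3 in siGRHL2a, log2FC 0.56 (SE 0.07, adjusted p = 9.53e-08), short of the fold threshold. LINC00662 had 32.5, 31.99 and 30.7 CPM in siNC1 and 43.6, 38.1 and 39.1 CPM in siKLF5b, log2FC 0.35 (SE 0.08, adjusted p = 0.000828), likewise short of it. The other members of the list among the 235 genes, LINC00467, LINC00665, LINC00839, LINC00857, LINC00888, LINC00941, LINC00958, LINC00963, LINC01234, LINC01503 and LINC01605, were called in none of the 4 comparisons.

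As a comparison, a list of 40 other long noncoding RNAs with names of their own, such as MALAT1, NEAT1 and GAS5, was counted. This list was also chosen with earlier results known, and 36 of its RNAs were tested. In siKLF5b against siNC1 0 were called by edgeR or by DESeq2 and their median log2FC was 0.04, while 6 were lower and 12 higher at an unadjusted p under 0.05. The background there was 1.37% of all genes called lower and 1.89% higher. In siTP63b against siSOX2b 2 were lower (MIR100HG and MIR22HG) and 3 higher (SOX2-OT, LNC-LBCS and NORAD), against a background of 2.82% and 3.88% of all genes tested. In siTP63b against siGRHL2a 1 was higher (UCA1), against 2.18%. In siSOX2b against siGRHL2a 2 were lower (SOX2-OT and NORAD) and 3 higher (MIR100HG, MIR22HG and UCA1), against 2.27% and 1.05%. SOX2-OT spans the SOX2 gene, so its counts may include those of the targeted mRNA.

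Called genes were also set beside their nearest coding gene. Neighbours were counted for each LINC gene, so a shared neighbour can be counted again. LINC01691 and LINC02798 share SRGAP2C. Of the 15 genes without coding overlap that were higher in siTP63b than in siSOX2b, 12 had a nearest coding gene that was tested, 10 of these had the same sign and 3 were called with it, and for the 2 lower genes both nearest genes had the same sign. Of all protein-coding genes tested in this comparison, 49.2% had a log2FC above 0 and 3.60% were called higher. The 3 called pairs were LINC02331 with BMP4, LINC01091 with SPRY1, an inhibitor of receptor tyrosine kinase signalling, and LINC01470 with NMUR2. With 1 library left out, the log2FC of LINC01470 was as low as 0.59, short of the fold threshold. SPRY1 lies 135266 bases from LINC01091 and gave log2FC 0.98 (SE 0.17, adjusted p = 3.17e-05). In siTP63b against siGRHL2a, 5 of the 6 nearest genes tested had the sign of the higher LINC gene and 2 were called with it (BMP4 and OGFRL1), while 5 of 9 had the sign of the lower LINC gene and 1 was called with it (MAP1LC3B2). Of all coding genes 50.9% were above 0 there, 2.2% were called higher and 2.9% lower. In siSOX2b against siGRHL2a, 7 of the 9 called genes had a nearest coding gene that was tested, 5 of these (all for lower genes) had the same sign and 0 were called by edgeR or DESeq2, with 1 lower at an unadjusted p under 0.05. In that comparison 51.0% of all coding genes tested were above 0, 2.07% were called lower and 0.886% higher. The 197 genes without coding overlap lay a median of 64477 bases from the nearest coding gene, and 26 of them lay within 5000 bases.

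Promoters, from 250 bases before to 50 after the start, are shown for 5 genes whose values stood out, a choice made after the values were seen. LINC00324, LINC02520 and LINC02541 overlap no other listed gene, and LINC01133 and LINC00472 have been studied in tumours. The sequences are from RefSeq on GRCh38.p14, printed 5′ to 3′ on the strand of the gene, with matches to the KLF motif in capitals. The windows are chr17:8223994-8224293, minus strand for LINC00324, chr1:159960974-159961273, plus strand for LINC01133, chr6:71420696-71420995, minus strand for LINC00472, chr6:37507098-37507397, plus strand for LINC02520 and chr6:113650026-113650325, minus strand for LINC02541. The RefSeq start of LINC01133 lies 3189 bases from that of its counted span, that of LINC02541 15 bases, and the other 3 starts coincide.
LINC00324: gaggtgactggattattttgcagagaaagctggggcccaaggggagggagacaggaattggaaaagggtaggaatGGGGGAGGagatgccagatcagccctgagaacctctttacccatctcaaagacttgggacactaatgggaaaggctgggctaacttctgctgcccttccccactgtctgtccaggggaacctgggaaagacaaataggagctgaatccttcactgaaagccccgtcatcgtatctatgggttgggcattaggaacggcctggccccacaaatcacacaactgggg
LINC01133: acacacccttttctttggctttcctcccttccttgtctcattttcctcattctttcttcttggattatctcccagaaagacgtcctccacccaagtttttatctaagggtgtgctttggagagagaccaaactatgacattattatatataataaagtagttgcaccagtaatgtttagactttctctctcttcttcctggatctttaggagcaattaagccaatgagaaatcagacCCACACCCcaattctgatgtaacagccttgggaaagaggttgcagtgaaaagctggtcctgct
LINC00472: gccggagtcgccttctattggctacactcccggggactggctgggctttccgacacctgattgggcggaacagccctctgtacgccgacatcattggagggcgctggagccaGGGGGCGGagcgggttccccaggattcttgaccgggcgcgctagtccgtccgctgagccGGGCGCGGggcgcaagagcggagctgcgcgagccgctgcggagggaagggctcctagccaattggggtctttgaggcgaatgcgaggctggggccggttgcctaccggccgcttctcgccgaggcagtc
LINC02520: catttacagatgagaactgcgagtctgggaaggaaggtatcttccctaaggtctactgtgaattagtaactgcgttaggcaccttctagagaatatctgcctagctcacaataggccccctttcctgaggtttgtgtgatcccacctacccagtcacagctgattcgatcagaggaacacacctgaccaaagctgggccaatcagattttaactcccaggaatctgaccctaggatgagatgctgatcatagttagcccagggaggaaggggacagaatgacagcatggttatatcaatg
LINC02541: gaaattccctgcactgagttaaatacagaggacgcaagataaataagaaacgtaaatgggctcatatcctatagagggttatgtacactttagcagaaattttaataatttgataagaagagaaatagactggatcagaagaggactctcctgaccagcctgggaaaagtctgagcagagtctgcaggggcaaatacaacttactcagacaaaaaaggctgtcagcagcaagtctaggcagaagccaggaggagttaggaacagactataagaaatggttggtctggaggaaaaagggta

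The letters searched on both strands were CCNCNCCC for KLF factors, ACAATG for SOX factors, AACNGGTT for GRHL factors and a half-site of the p53 family. The KLF letters occurred once in the windows of LINC00324 and LINC01133, in 2 places in that of LINC00472 and in neither that of LINC02520 nor that of LINC02541. The other 3 motifs matched none of the 5 windows. RefSeq promoters were matched for 158 of the 235 genes, with 176 windows, of which 45.5% held the KLF letters, 10.8% the SOX letters, 2.27% the GRHL letters and 3.98% the p53 family half-site. Of all 34796 promoters of the same length these shares were 56.1%, 10.8%, 1.72% and 6.65%. A match describes the letters alone, and no binding was measured here.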

How the data were processed

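RNA-seq of 15 HCC95 libraries, 5 groups of 3, was taken as deposited. The authors made the raw count table from paired-end reads of polyadenylated RNA, aligned to hg38 with HISAT2 2.2.1 and counted on Gencode v40 genes with featureCounts 2.0.1, using uniquely aligned reads. The counts were not normalized. Strand and the treatment of overlaps are not given in the sources used here. The column names gave the library of every column, with 0 columns unmatched. Library totals were 15655495 to 34229063 counts.

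The analysis used edgeR 4.0.16 (R 4.3.3), with TMM factors, filterByExpr by group, one quasi-likelihood fit of the 15 libraries and Benjamini-Hochberg adjustment over 25108 genes. The steps were tested on simulated data. CPM include the TMM factors. Overlaps and neighbours came from the table's own positions, and gene types and exons from Gencode v44, in which 213 of the 235 genes had the same span. The genes and lists were chosen with earlier results of these data known. Genes named were, per comparison and direction, the 6 called genes with the largest log2FC whose groups did not overlap, the 10 with the highest CPM, the cancer list, the 3 on each side of the count threshold, the genes most matched by a coding gene, and their coding neighbours. Alternatives were DESeq2 1.42.0, RLE size factors, no low-count filter, only the libraries compared, halved counts in 9 libraries, the replicate block, other fold thresholds, each library left out, and coding genes subtracted (chosen after seeing the data).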

Additional observations from a re-analysis of the deposited data

How the results depend on the processing

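Counts of called LINC genes moved most with the fold threshold. Without one, siKLF5b against siNC1 had 13 lower and 81 higher, siTP63b against siSOX2b 24 and 72, siTP63b against siGRHL2a 44 and 34, and siSOX2b against siGRHL2a 71 and 14. Above an absolute log2FC of 1 the counts were 3 lower and 5 higher, 1 and 11, 4 and 4, and 4 and 1, in the same order. The other fits (DESeq2, RLE size factors, no low-count filter, only the libraries compared, halved counts and subtraction of coding genes) stayed within 1.5 times of each count. When each library was left out in turn, siKLF5b against siNC1 had 2 to 3 lower and 17 to 21 higher, siTP63b against siSOX2b 2 to 4 and 15 to 20, siTP63b against siGRHL2a 8 to 10 and 7 to 9, and siSOX2b against siGRHL2a 8 to 13 and 1 to 3. Calls kept without each library were 12 of 22, 12 of 18, 12 of 18 and 5 of 9, and 0 values changed sign. The cause of these moves was not tested. With the replicate number as a block, siSOX2b against siGRHL2a had 8 lower rather than 7, the added gene being LINC02211, and the other counts kept their value. Correlations between the deviations of libraries of the same number were small (-0.03 to 0.03). In the 4 comparisons 0, 3, 2 and 6 of 6 libraries correlated best with their own number. In the last of these, siSOX2b against siGRHL2a, the correlations were 0.018, 0.021 and 0.029. The numbers were not taken to pair the libraries, and whether they do in siSOX2b against siGRHL2a was not settled. The lowest mean count of a called gene was 52.6.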
